A study of Mus musculus with 32 samples.

Results

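Sites of N6-methyladenosine (m6A) enrichment in chromatin-associated RNA (caRNA) were set against those in polyadenylated RNA (mRNA) of the same kind of cell, the control mouse embryonic stem cells of a Mettl3 knockout line. The peaks of 2 caRNA and 2 mRNA immunoprecipitation libraries were merged on each strand wherever they overlapped by at least 1 bp, which gave 48484 regions. A region was chromatin-only if both caRNA libraries and no mRNA library had a peak there, mRNA-only in the reverse case, and shared if all 4 libraries had one. The rule put 31542 of the 48484 regions into a class, and the remaining 16942 had another pattern, such as a peak in 1 library of a pair. Merging the 16 immunoprecipitation libraries of the whole series, which also covers the knockout cells and a Mettl14 line, gave 80081 regions.

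The cells had a C57BL/6 background and were grown without any stated further treatment in medium with LIF at 1000 U/ml, CHIR99021 at 3 µM and PD0325901 at 1 µM, a mixture that holds embryonic stem cells in a naive state. The labels call them the control of the Mettl3 line and do not give their genotype at the Mettl3 locus, how a knockout was induced, or whether the 2 libraries of a pair came from separate cultures. A p-value below therefore measures the spread between libraries, which may be technical. The chromatin fraction was depleted of ribosomal RNA, the mRNA was selected by its poly(A) tail, and each sample was fragmented and precipitated with an m6A antibody after addition of spike-in RNA. RNA fraction and RNA selection thus differ together between the groups and cannot be told apart.

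m6A is placed on adenosines, mostly within short sequence contexts around GGAC, by a nuclear complex whose catalytic subunit is METTL3 and whose partner is METTL14. On mature mRNA it is known to be densest near the stop codon, in long internal exons and along the 3′ untranslated region, where reader proteins act on splicing, translation and decay. Chromatin-associated RNA holds nascent and unspliced transcripts, RNA from promoters and enhancers, and retained noncoding RNA, much of which never carries a stable poly(A) tail.

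One kind of chromatin-only region lies just upstream of a protein-coding start, on the strand opposite to the gene. The peak lists do not show where such RNA begins. The windows below are shown because they hold the strongest of the chromatin-only regions of this kind whose summits lay in a window free of annotated genes, ranked here and below by the lower fold of the 2 libraries: the 250 bases upstream of a protein-coding start, read on the opposite strand in the direction of the peak, from RefSeq on GRCm38.p6. Capitals mark GGAC, searched on the printed strand only.
Rrn3 upstream antisense: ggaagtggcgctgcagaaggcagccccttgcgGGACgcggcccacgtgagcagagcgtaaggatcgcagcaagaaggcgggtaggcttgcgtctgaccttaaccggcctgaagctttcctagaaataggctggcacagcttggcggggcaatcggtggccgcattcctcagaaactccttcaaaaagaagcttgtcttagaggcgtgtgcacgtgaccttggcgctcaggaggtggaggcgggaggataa
Derl3 upstream antisense: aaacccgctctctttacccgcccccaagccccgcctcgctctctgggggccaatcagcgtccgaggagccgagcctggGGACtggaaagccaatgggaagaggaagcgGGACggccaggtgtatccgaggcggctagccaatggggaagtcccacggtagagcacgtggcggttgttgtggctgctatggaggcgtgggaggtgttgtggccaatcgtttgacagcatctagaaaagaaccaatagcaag
Hpdl upstream antisense: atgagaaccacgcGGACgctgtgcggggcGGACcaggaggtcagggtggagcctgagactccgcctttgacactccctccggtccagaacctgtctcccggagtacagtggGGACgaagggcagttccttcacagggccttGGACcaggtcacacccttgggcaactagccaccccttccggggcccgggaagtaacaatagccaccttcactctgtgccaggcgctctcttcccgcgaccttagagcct

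The Rrn3 window, chr16:13780449-13780698 on the minus strand, lies upstream of the gene for a factor that recruits RNA polymerase I to ribosomal DNA. Its region was 476 bp wide, with the summit 186 bp from the start and fold enrichments of 8.53 and 8.63 in the 2 caRNA libraries. The Derl3 window, chr10:75893148-75893397 on the minus strand, lies upstream of a gene for endoplasmic reticulum protein degradation. That region spanned 1381 bp, with folds of 7.42 and 7.49, and ran on past the start of Derl3 on the opposite strand. The Hpdl window, chr4:116821509-116821758 on the plus strand, belonged to a 526 bp region with folds of 6.48 and 6.80 that also reached past the start of its gene. No peak of either mRNA library touched these 3 regions. GGAC was present in 8 of the 10 such windows that held an antisense chromatin-only summit and were free of gene bodies, against 13227 of 21263 windows (62.2%) upstream of all protein-coding starts read the same way. The 10 windows are too few to set these shares apart.

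The caRNA libraries held 37955 and 40090 peaks and the mRNA libraries 22165 and 22592. Of the regions of a library, 82.1% to 87.2% in caRNA and 85.0% to 86.8% in mRNA also held a peak of the other library of the pair. Of 10 embryonic stem cell markers, 9 carried a summit that lay in no other gene's body in each caRNA library and 7 in each mRNA library. Pou5f1, Nanog, Esrrb, Klf4, Zfp42, Tfcp2l1 and Sall4 were marked in all 4. Summits of either strand marked a gene. A peak shows that RNA of the locus, from the gene or its opposite strand, was present and enriched, while its absence shows nothing about expression. On the spike-in labelled control RNA 2, minus strand, the deposited fold was 8.57 and 8.26 in caRNA and 4.48 and 5.73 in mRNA. On its plus strand the libraries overlapped, with 2.94 and 2.54 in caRNA and 1.93 and 2.56 in mRNA. The part of such differences in the results was not tested. Peaks lay on both strands of this control RNA. The part of opposite-strand reads in the antisense summits of the cell's own RNA was not tested either.

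Chromatin-only regions were far more numerous than mRNA-only regions. The 14456 chromatin-only regions were 29.8% of all merged regions, the 2275 mRNA-only regions 4.69% and the 14811 shared regions 30.5%. The caRNA lists were also longer. When each list was reduced to its 22165 strongest peaks, the length of the shortest, 5139 regions were chromatin-only and 4700 mRNA-only, with 11751 shared. Lists of equal length leave similar numbers of peaks for both exclusive classes, so the near balance of these counts follows largely from the cut itself. Among the 10000 strongest peaks of each library, 2163 regions were chromatin-only, 1961 mRNA-only and 5333 shared.

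**Figure D1:**
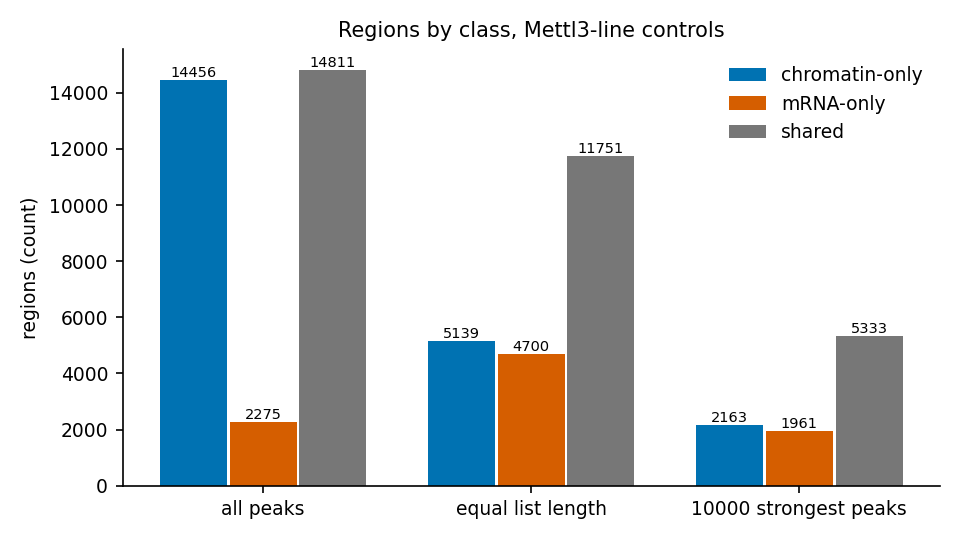
Number of merged regions (y axis) in each class for all peaks, for lists cut to the shortest length, and for the 10000 strongest peaks of each library. Bars are counts from the 4 Mettl3-line control libraries, with no error bar. Chromatin-only regions outnumbered mRNA-only regions by 14456 to 2275 with all peaks and by 5139 to 4700 at equal list length.

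At the level of genes, 12434 genes held a summit that lay in no other gene's body. By the same rule, 2088 of them (16.8%) were chromatin-only, 550 (4.42%) mRNA-only and 7615 (61.2%) shared. Long noncoding RNA genes were split differently from protein-coding genes. Of 632 marked lncRNA genes 34.2% were chromatin-only, 9.34% mRNA-only and 25.5% shared, while the shares among 11349 marked protein-coding genes were 15.6%, 4.13% and 64.1%. At equal list length the order of the exclusive genes turned, with 922 chromatin-only and 1175 mRNA-only genes, so their ratio cannot be read apart from list length. Most chromatin-only regions did not lie in chromatin-only genes. Of the 12108 that lay in a single gene, 8093 (66.8%) were in genes also marked in all 4 libraries, and the same held for 980 of 1785 mRNA-only regions (54.9%).

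The classes occupied different parts of protein-coding genes. Position was read for summits on the strand of a gene whose strand was known, as the decile of the gene body, which was cut into 10 equal parts from start to end. Chromatin-only regions were the most frequent class at gene starts: 19.6% of their sense summits lay in the first decile, against 8.50% for shared and 5.52% for mRNA-only regions. Gene ends showed the reverse, with 13.5% of chromatin-only, 33.7% of shared and 40.5% of mRNA-only summits in the last decile. Between these ends the chromatin-only regions were spread evenly, at 7.47% to 8.67% for each decile from the second to the ninth. The mRNA-only regions instead climbed from 3.14% in the second decile to 16.4% in the ninth. The median chromatin-only summit stood 13.2 kb from the start and 16 kb from the end of its gene, the median mRNA-only summit 28.5 kb and 3.91 kb, and the median shared summit 19.7 kb and 5.11 kb. At equal list length the first decile held 19.3%, 5.75% and 8.69% of chromatin-only, mRNA-only and shared summits, and the last decile 10.5%, 40.3% and 32.7%. The files and the tables used give no exons, so introns, exons and untranslated regions could not be separated.

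**Figure D2:**
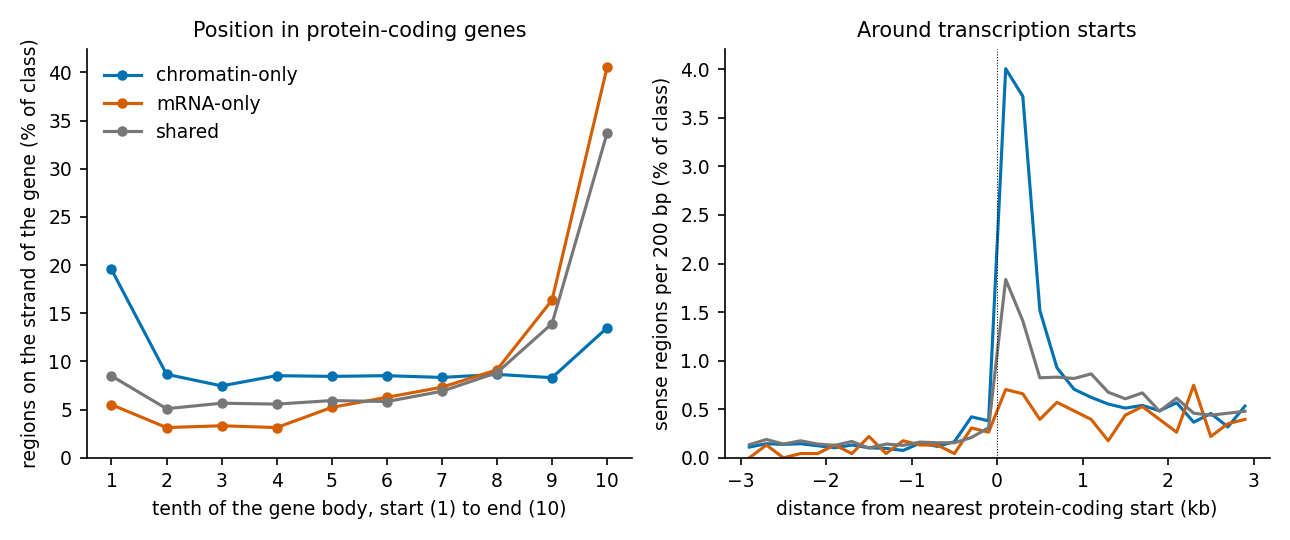
Left, share of sense regions of each class (y axis, %) by decile of the protein-coding gene body (x axis). Right, sense summits per 200 bp (y axis, % of the class) by distance in kb from the nearest protein-coding start (x axis). Chromatin-only regions stand highest in the first decile (19.6%) and within 1 kb after a start, and mRNA-only regions highest in the last decile (40.5%).

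Around annotated starts the chromatin-only regions were concentrated just inside the transcript. Of the class, 751 regions (5.20%) had a sense summit in the first 250 bp and 1572 (10.9%) within 1 kb after the nearest protein-coding start. The corresponding shares within 1 kb were 5.72% for shared and 2.81% for mRNA-only regions. In the kilobase upstream of a start, 1.24% of chromatin-only regions were sense and 1.12% antisense. The antisense shares there were 0.923% for mRNA-only and 0.506% for shared regions. In the kilobase after a start, antisense shares were 1.965% for chromatin-only, 0.747% for mRNA-only and 0.614% for shared regions. Within genes of known strand, antisense summits made up 10.6% of chromatin-only, 15.6% of mRNA-only and 4.62% of shared regions.

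The same order was seen inside single genes. In 2814 genes that held both chromatin-only and shared sense regions, the chromatin-only regions lay nearer the start in 2068 (73.5%). The median difference in position was -24.0% of the gene length, where a negative value is nearer the start. In 402 genes with both mRNA-only and shared regions, the mRNA-only regions lay nearer the end in 260 and nearer the start in 142. The median difference over the 402 genes was 7.04% of the gene length, toward the end. These genes are not replicates, and the counts are given without a test.

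Position was also measured per library, on all peaks and without the classes. In the Mettl3-line controls 13.7% and 14.3% of sense summits in caRNA fell in the first decile of the gene, against 8.34% and 9.18% in mRNA. The last decile held 23.5% and 22.8% in caRNA and 33.5% and 32.8% in mRNA. The libraries of the fractions did not overlap in either measure, but 2 against 2 cannot give an exact two-sided p below 0.333. Over all 16 libraries, with RNA type permuted within each line and genotype, the difference of caRNA from mRNA was 6.10 percentage points in the first decile and -13.6 in the last. Both had an exact permutation p of 0.00154, the smallest possible, and 0.00412 after Benjamini-Hochberg adjustment over 8 measures, with the same sign in 4 of 4 conditions. At equal list length these differences were 5.39 and -12.8 percentage points.

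Other measures differed less. Summits outside annotated genes made up 7.39% and 7.78% of caRNA peaks and 6.54% and 6.00% of mRNA peaks in the Mettl3-line controls, and over 16 libraries caRNA was higher by 3.08 percentage points (adjusted exact permutation p = 0.00412). With lists of equal length this was 1.11 points (adjusted exact permutation p = 0.0159) and with the 10000 strongest peaks 1.59. The share of summits in lncRNA genes was 2.005% and 2.11% in caRNA and 2.017% and 1.899% in mRNA, which overlap. Over 16 libraries the lncRNA share was higher in caRNA by 0.419 percentage points (adjusted exact permutation p = 0.00617), but with 0.163 points at equal list length it no longer passed (adjusted p = 0.0586). The genes holding a summit had median lengths of 34.2 and 35.0 kb in caRNA and 35.3 and 33.1 kb in mRNA, which overlap as well, while over 16 libraries they were longer in caRNA by 7.28 kb (adjusted exact permutation p = 0.00617). The antisense share did not pass over 16 libraries, at 0.733 percentage points (adjusted exact permutation p = 0.128), and its sign turned at equal list length, to -1.72 (adjusted exact permutation p = 0.00247), and among the 10000 strongest peaks, to -0.549 (0.00494).

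Chromatin-only regions were weaker within their libraries than shared regions. Their median fold was 4.65 and 4.61 in the 2 caRNA libraries, where peaks of shared regions had 6.71 and 6.69. In the mRNA libraries the mRNA-only peaks had median folds of 5.30 and 5.16 and shared peaks 5.07 and 4.98, so that mRNA-only peaks were not the weaker ones there. Folds are those the authors deposited, and no test was made between lists.

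Shared regions were the wide ones. The median merged region spanned 265 bp for chromatin-only, 234 bp for mRNA-only and 512 bp for shared regions, and 1.501%, 1.36% and 18.3% of them reached 1 kb. The rule favours this, since a wide region has more chances to overlap a peak of another list, and shared regions merge up to 4 lists. The width of single peaks inside the shared regions avoids the second of these. Such peaks had a median width of 430 and 441 bp in caRNA and 333 and 335 bp in mRNA. A shared region held on average 1.09 peaks in each mRNA library and 1.04 and 1.03 in the caRNA libraries, whose part in the width was not tested. In the 12 other libraries, peaks in these same regions were wider in caRNA by 81.8 bp (exact two-sided permutation test, p = 0.00926, the smallest possible), with each caRNA library above both mRNA libraries of its condition. The median width of all peaks ran the other way, at 270 and 268 bp in caRNA and 278 and 276 bp in mRNA, and by -11 bp over 16 libraries (adjusted exact permutation p = 0.00617). This sign turned at equal list length, where caRNA peaks were wider by 110.5 bp.

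**Figure D3:**
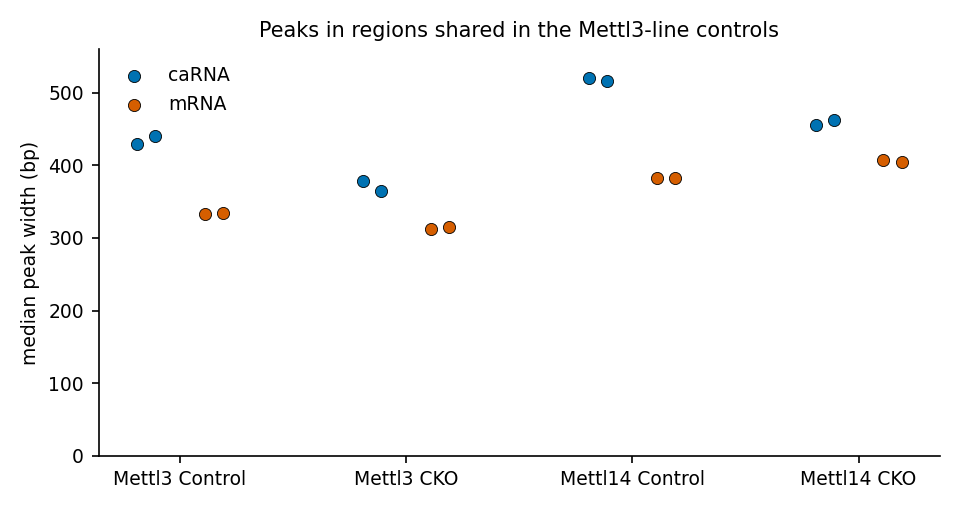
Median peak width in bp (y axis) of each of 16 libraries, inside the 14811 regions shared by the Mettl3-line controls, by line and genotype (x axis). Each point is a library, with caRNA in blue and mRNA in orange. caRNA lies above mRNA in all 4 conditions, at 430 and 441 bp against 333 and 335 bp in the Mettl3-line controls.

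The widest chromatin-only regions inside a single gene were a 2838 bp region of Mcf2, a guanine nucleotide exchange factor, with folds of 7.72 and 7.96 at 85.1% of the gene, and a 2382 bp region of Ndufaf6, an assembly factor of respiratory complex I. Trip4, a transcriptional coactivator, and Cul7, a scaffold of a ubiquitin ligase, held regions of 2336 and 2278 bp. The widest mRNA-only regions spanned 2507 bp in Pcdh7, a protocadherin, at 1.04% of its gene, and 2475 bp in Cspg4, a cell-surface proteoglycan.

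Among the genes marked in chromatin alone, the highest by the lower fold was Vps13c, a lipid transfer protein. Its best peak, chr9:67880519-67880925 on the plus strand, had folds of 18.9 and 19.4 in the caRNA libraries and no counterpart in mRNA, and the gene was marked in 6 of 6 other caRNA libraries and 0 of 6 other mRNA libraries. Bdkrb2, a bradykinin receptor, followed with 22.0 and 17.5 in a 2205 bp region at 91.9% of the gene. Zkscan2, a zinc finger gene, had 16.7 and 16.8 at 18% of the gene. Dgkz, a diacylglycerol kinase, had 15 and 17.4 at 1.80% of its length, and Acsf3, an acyl-CoA synthetase of mitochondria, had 15.0 and 14.9 at 11.7%. Tbcb, a tubulin folding cofactor, had 14.8 and 14.2 with the summit 106 bp after the start, and 5 chromatin-only regions in all. The Fstl4 summit (15 and 17.0) lay on the strand opposite to the gene. Focad, known as a tumour suppressor involved in focal adhesion, had 13.6 and 16.6. Each of these 8 genes was marked in 6 of 6 other caRNA libraries, and in 0 to 4 of 6 other mRNA libraries.

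Noncoding genes of the same class included Otx2os1, transcribed opposite the homeobox gene Otx2, with folds of 13.0 and 15.6, and the lncRNAs Gm41937 (12.1 and 17.1), Gm38528 (15.6 and 13.6, the strongest region antisense to the gene) and Gm807 (13.5 and 13.9). The pseudogene Gm35619 had 14.03 in both caRNA libraries. Otx2os1, Gm41937 and Gm35619 were marked in 6 of 6 other caRNA libraries and no other mRNA library. Gm807 went the other way, with 2 of 6 other caRNA and 4 of 6 other mRNA libraries. Outside genes, the strongest chromatin-only regions were chr3:22220810-22221442 on the plus strand, with 21.6 and 20.5, and chr13:61920354-61920663 on the plus strand, with 22.9 and 20.4.

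Long genes collected many chromatin-only regions. Vps13b, a 560.1 kb gene for a protein of Golgi traffic, held 19 of them beside 3 shared regions, and Exoc4, a subunit of the exocyst, 18 beside 9. Diaph2, a formin, held 17 and no shared region. Immp2l, a subunit of a mitochondrial inner membrane peptidase, held 17 in 931.5 kb and was itself chromatin-only, with best folds of 12.4 and 14.3. Myo10, an unconventional myosin, held 15, and Pde4d, a cAMP phosphodiesterase, 14. Across all genes 6473 held at least 1 chromatin-only region, 347 held 5 or more and 29 held 10 or more. By gene length, however, the share of regions that were chromatin-only stayed between 27.4% and 31.9% from genes under 5 kb to genes over 100 kb.

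The strongest mRNA-only protein-coding genes included secreted factors, transporters and a transcription factor. Gm40363, a predicted protein-coding gene, had the highest folds, 26.1 and 23.5. Kcnj15, an inwardly rectifying potassium channel, had 23 and 20.6 in a 1639 bp region at 94.2% of the gene. Sema3a, a secreted axon guidance factor, had 19.8 and 25.1 at 99.2%, Fgf18, a fibroblast growth factor, 20.03 and 18.7 at 98.3%, and Dkk2, a modulator of Wnt signalling, 16.9 and 16.6 at 97.7%. Snai2, a repressor of the epithelial state, had 21.5 and 19.9, Ndnf, a secreted neuronal factor, 20.4 and 22.8, and Slco3a1, an organic anion transporter, 17.1 and 21.6. All 4 of these with a known gene strand, Kcnj15, Sema3a, Fgf18 and Dkk2, had their strongest region in the last decile of the gene. In the other libraries Snai2 was marked in 6 of 6 mRNA and 0 of 6 caRNA libraries, but Dkk2 in 6 of 6 of both.

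Few genes held many mRNA-only regions: 15 of 1405 held 5 or more. AW822252, an lncRNA gene on the X chromosome, held 12 and Fat4, an atypical cadherin, 10, while Cgnl1, a junction protein, and Nexn, an actin-binding protein, held 7 each. Of noncoding genes marked in mRNA alone, Platr8, a lncRNA named for its association with pluripotency, had folds of 9.75 and 9.35, and 5033430I15Rik had 10.4 and 8.71. Both were marked in 6 of 6 other mRNA libraries. Gm41414 had 8.55 and 13.3 on the strand opposite to the gene, and the pseudogenes Gm6851 and Gng5-ps had 9.47 and 9.84, and 8.68 and 9.17. Reads of a pseudogene can belong to a near-identical copy. Outside genes, the highest by the lower fold was chr6:52258647-52259172 on the minus strand, with 13.3 and 12.4. Its summit lay 2058 bp after the start of Hoxa13, on the strand of that gene. Next were chr13:21811984-21812872 on the plus strand, with 12.4 and 13.97, and chr9:3000118-3000721 on the minus strand, with 25.9 and 11.3. The chr13 summit lay 673 bp after the start of the histone gene H4c17, also on the strand of the gene.

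Genes marked most strongly in all 4 libraries served as the reference of the shared class. Pik3ca, the catalytic subunit of a phosphoinositide kinase, had 23.8 and 30.7 in caRNA and 35.2 and 29.6 in mRNA, at 95.2% of the gene. Tenm4, a teneurin, had 28.9 and 25.6, and 24.7 and 21.1, at 99.4%, and Usp35, a deubiquitinase, 30.1 and 42.5, and 18.98 and 24.99, at 87.7%. Tenm4 held 8 chromatin-only regions beside its 5 shared ones. The Mettl3 gene itself was chromatin-only, with best folds of 4.16 and 6.82, and Mettl14 had no summit of its own in any of the 4 libraries.

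The gene lists showed a few groups far from the shares over all genes. Replication-dependent histone genes, whose mature transcripts end in a stem-loop and carry no poly(A) tail, were marked mostly in chromatin: of 63 members 55 held a summit, and 38 (69.1%, against 16.8% of all genes) were chromatin-only, 12 shared and 1, H4c18, mRNA-only. In single libraries the counts did not overlap, with 54 and 54 members marked in caRNA and 16 and 14 in mRNA. H2ac15 had the best peak of the class at 8.06 and 11.6, H2ac12 had 8.42 and 3.88, H2ac8 8.27 and 6.27, the linker histone H1f1 8.19 and 6.52, and H1f3 7.17 and 4.94. The weakest were H3c1 with 2.04 and 1.33 and H4c4 with 1.72 and 1.63. Of the 38 genes 35 lie on chromosome 13 and 3 on chromosome 3, with a median length of 487.5 bp. Over the whole list, 27 of 59 chromatin-only regions with a known gene strand were antisense to the gene, against 10.6% for chromatin-only regions in all protein-coding genes. Histone genes are near-identical and densely packed, so reads may have been placed on a copy. With lists of equal length 30 were chromatin-only, and among the 10000 strongest peaks 16.

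The difference in histone genes was present in the libraries outside the rule, at a level that varied between the conditions, also between control and knockout of the Mettl14 line. The Mettl3 knockout cells had 54 and 53 members marked in caRNA and 22 and 23 in mRNA. The Mettl14-line controls had 24 and 20 in caRNA and 2 and 2 in mRNA, and the Mettl14 knockouts 43 and 41, and 12 and 14. In each of these 3 conditions both caRNA libraries lay above both mRNA libraries.

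Hox genes, homeobox regulators of body patterning that are largely silent in naive embryonic stem cells, showed the opposite distribution. Of 39 members 17 held a summit, 9 (52.9%) were mRNA-only against 4.42% of all genes, 5 shared and 1, Hoxc13, chromatin-only. Hoxc8 had folds of 12.7 and 11.7 in mRNA, Hoxd11 18.9 and 8.17, Hoxb8 10.2 and 4.16, Hoxb7 9.36 and 5.62, and Hoxd13 6.25 and 8.37. Hoxa3, Hoxa9, Hoxc6 and Hoxd10 lay between 3.15 and 6.83. The members came from all 4 Hox clusters. In single libraries 7 and 6 members were marked in caRNA and 15 and 16 in mRNA. In the 12 other libraries the counts were 3 to 6 in caRNA and 9 to 14 in mRNA, without overlap. With lists of equal length, 11 Hox genes were mRNA-only.

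Markers of other cell types were present in both fractions. Of 8 primitive endoderm markers 4 were marked in each caRNA library and 5 in each mRNA library, with summed best folds of 19.8 and 18.6 against 36.1 and 27.6. Gata6 (10.8 and 7.02) and Sox7 (5.07 and 6.34) were mRNA-only and Gata4 (5.37 and 3.67) was chromatin-only, while Sox17 and Foxa2 held no summit. Outside the rule's libraries Gata4 went the other way, marked in 0 of 6 caRNA and 4 of 6 mRNA libraries. Gata6 was marked there in 0 of 6 caRNA and 6 of 6 mRNA libraries, and Sox7 in 0 of 6 and 5 of 6. Of 10 fibroblast markers 3 and 4 were marked in caRNA and 4 and 6 in mRNA, with summed best folds of 14.2 and 22, and 10.6 and 18.5. Lum, Postn and Mmp2 held no summit, Col3a1 was mRNA-only (1.62 and 3.35) and Vim chromatin-only (4.11 and 5.97). In a wider fibroblast list 3 of 10 marked genes were mRNA-only (30%, against 4.42% of all genes) and 2 chromatin-only (20%, against 16.8%). Col6a1 was among the mRNA-only ones, with 13.2 and 10.6. The mRNA-only count was 5 without the first mRNA library. The part of differentiated or feeder cells in the mRNA-only genes was not tested.

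Of the 10 genes of the mitochondrial genome with a summit, 4 were mRNA-only (40%, against 4.42% of all genes), 3 shared and none chromatin-only. The mRNA-only count was 6 in lists of equal length and 0 among the 10000 strongest peaks. Their folds were low, from 1.38 and 1.43 for ND1 and 1.54 and 1.48 for COX2 to 1.76 and 2.16 for ND4 and 1.92 and 2.22 for ATP8. The other libraries gave no constant picture, with 5 to 8 of 13 genes marked in caRNA and 0 to 7 in mRNA. Nuclear genes of oxidative phosphorylation had 16 of 70 chromatin-only (22.9%, against 16.8% of all genes) and 2 mRNA-only. Atp5b, the catalytic subunit of ATP synthase, held 8 chromatin-only regions with best folds of 10.3 and 11.4. Without the second mRNA library, 33 of these genes were chromatin-only. Cytosolic ribosomal protein genes had 5 of 70 chromatin-only (7.14%, against 16.8% of all genes) and 28 shared (40%, against 61.2%). The 3 mRNA-only genes, Rps23 and Rps27 among them, were 4.29%, near the 4.42% of all genes. The chromatin-only count was 24 without the second mRNA library and 8 without the first caRNA library, and the mRNA-only count was 10 without the first mRNA library. Both families have many processed pseudogenes, so reads may have been placed on copies.

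**Figure D4:**
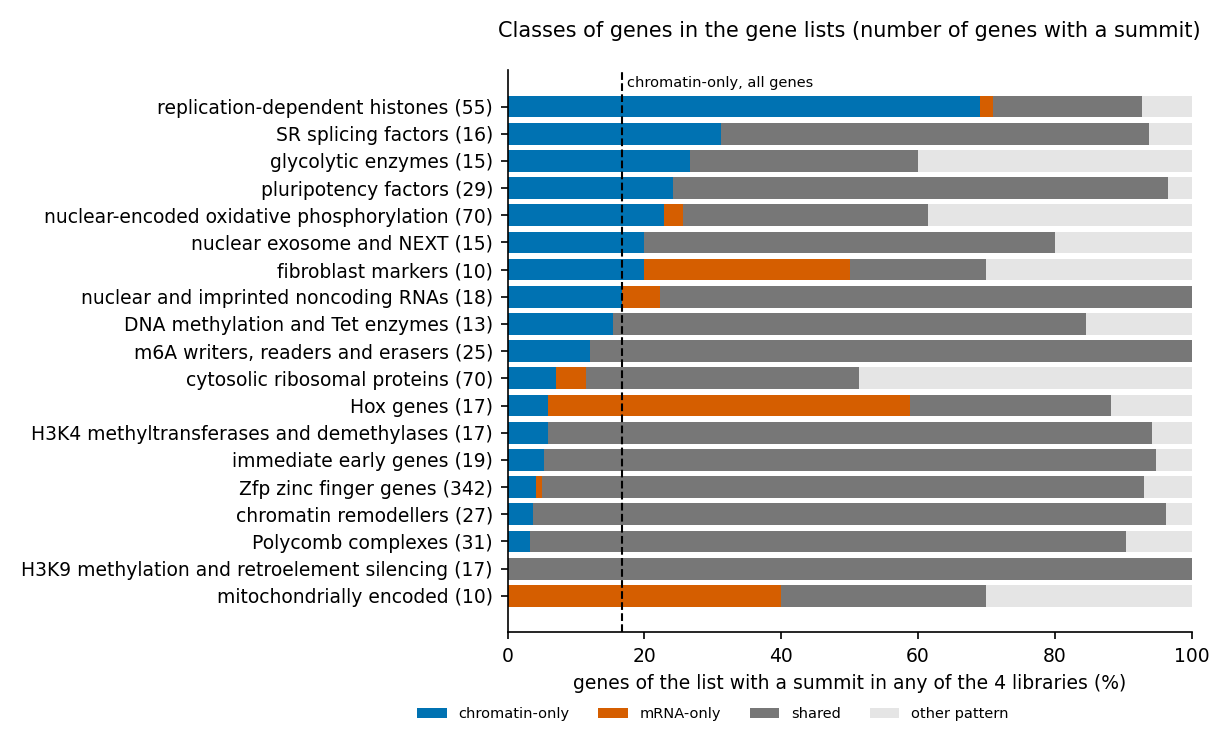
Share of the genes with a summit (x axis, %) that were chromatin-only, mRNA-only, shared or of another pattern, for each gene list with at least 10 such genes (number in brackets). The dashed line marks the 16.8% of all 12434 marked genes that were chromatin-only. Histone genes (69.1%) stand highest in chromatin-only and Hox genes (52.9%) highest in mRNA-only genes.

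Of 29 marked pluripotency genes 21 were shared, none was mRNA-only and 7 were chromatin-only. The shares, 72.4% shared and 24.1% chromatin-only, stand beside 61.2% and 16.8% over all genes, of which 4.42% were mRNA-only. The chromatin-only members were Dppa3, a maternal factor protecting DNA methylation, with 9.22 and 9.74, the germ cell regulator Prdm14 with 8.07 and 9.27, the AKT coactivator Tcl1 with 8.02 and 9.36, and Stat3, the effector of LIF, with 4.31 and 4.13. Lin28a, which blocks maturation of let-7 microRNAs, had 3.54 and 2.33, and Utf1 and Dppa5a lay between 1.61 and 3.38. Lists of equal length gave 4 chromatin-only and 1 mRNA-only member. With only peaks on the gene's strand, which also leaves out genes of unknown strand, 4 were chromatin-only. Sox2 held no summit of its own, and Sox2ot, the noncoding gene at the same locus, was chromatin-only with 4.47 and 3.55. A summit lying in both gene bodies counted for neither gene, so this does not show that Sox2 RNA lacked peaks.

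SR splicing factors, which bind exonic enhancers and control their own transcripts by splicing, had 5 of 16 chromatin-only (31.3%, against 16.8% of all genes) and 10 shared (62.5%, against 61.2%). Among the 10000 strongest peaks 3 were chromatin-only. Srsf2 had best folds of 8.14 and 6.68, Srsf1 7.83 and 6.27 in 5 regions, Srsf4 4.50 and 5.37, Srsf6 4.43 and 5.04, and Srsf3 1.889 and 1.904. Of the genes of the m6A pathway 22 of 25 were shared (88%, against 61.2%), and beside Mettl3 the chromatin-only members were Mettl5, a ribosomal RNA methyltransferase, with 6.98 and 7.23, and the reader Igf2bp3 with 5.45 and 5.25. Glycolytic enzymes had 4 of 15 chromatin-only (26.7%, against 16.8%), among them Tpi1, the triosephosphate isomerase, with 6.02 and 5.69, but 10 were chromatin-only without the second mRNA library. Components of the nuclear exosome had 3 of 15 chromatin-only (20%), near the share over all genes: Exosc3, Exosc5 and Exosc8.

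Chromatin regulators were mostly shared. All 17 marked genes of H3K9 methylation and retroelement silencing were shared, against 61.2% of all genes. So were 25 of 27 chromatin remodellers, 27 of 31 Polycomb genes and 15 of 17 H3K4 enzymes. Of 13 enzymes of DNA methylation 9 were shared (69.2%), near the share over all genes. No gene of these lists was mRNA-only, but the 4.42% of all genes is too low for lists this short to differ from it clearly. In lists of equal length 3 Polycomb genes were mRNA-only, and among the 10000 strongest peaks 1 Polycomb gene and 2 remodellers. Leaving out the second mRNA library raised the chromatin-only DNA methylation genes from 2 to 4 and the H3K4 enzymes from 1 to 2. The chromatin-only Polycomb genes numbered 2 without the first mRNA library, and the remodellers 2 without the first caRNA library. Without either caRNA library 1 Polycomb gene was mRNA-only. The exceptions marked in chromatin alone were Smarcd2 (7.94 and 7.49), the Polycomb gene Pcgf1 (5.25 and 6.98), the demethylase Kdm1a (4.67 and 4.62) and, among DNA methylation genes, Dnmt3l (7.54 and 7.77, in 5 regions) and Tdg (3.559 and 3.597). They made up 3.70% of remodellers, 3.23% of Polycomb genes, 5.88% of H3K4 enzymes and 15.4% of DNA methylation genes, against 16.8% of all genes. Zinc finger genes of the Zfp family, the largest list, had 301 of 342 shared (88.0%, against 61.2% of all genes). A further 14 were chromatin-only (4.09%, against 16.8%) and 3 mRNA-only (0.877%, against 4.42%). These counts were 3 and 18 in lists of equal length. Of 19 marked immediate early genes 17 were shared (89.5%, against 61.2%). Fosb alone was chromatin-only (5.26%, against 16.8%), with 7.82 and 8.13. In lists of equal length 3 were mRNA-only. Of noncoding RNAs known to stay in the nucleus or to be imprinted, 14 of 18 were shared (77.8%, against 61.2%). The 3 that were chromatin-only made up 16.7%, near the 16.8% of all genes. Among them were Firre (2.67 and 3.69), which organises nuclear structure, and Platr3 (4.57 and 3.33). H19, an imprinted and polyadenylated RNA, was the 1 mRNA-only member (5.56%, against 4.42% of all genes), with 5.47 and 2.28. The short lists of snoRNA host genes and small structured RNAs held 6 and 4 marked genes, with 0 and 1 chromatin-only, and 2 and 4 without the first caRNA library.

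The 12 libraries of the other conditions showed how far the classes held beyond the libraries that formed them. Chromatin-only regions held a peak in 61.1% to 73.8% of cases in the 6 other caRNA libraries and in 6.73% to 13.8% in the 6 other mRNA libraries. The difference was 55.6 percentage points, with an exact two-sided permutation p of 0.00926, the smallest possible, and 0.0278 after adjustment over 3 classes. All caRNA libraries lay above all mRNA libraries. Their lists were also longer, at 38272 to 45241 peaks in caRNA against 16537 to 23380 in mRNA. The part of list length in these shares was not tested. mRNA-only regions held a peak in 27.2% to 74.1% of cases in mRNA and 14.2% to 31.5% in caRNA, a difference of -27.2 points (exact permutation p = 0.0185, adjusted 0.0278). That order rested on the knockout libraries: the Mettl14-line controls had 27.2% and 30.3% in mRNA and 28.6% and 27.0% in caRNA, which overlap. Without the second mRNA library of those controls the adjusted exact permutation p was 0.0556. Shared regions held a peak in 84.6% to 91.2% of cases in caRNA and 69.3% to 88.7% in mRNA, a difference of 6.69 points that did not pass (exact permutation p = 0.167). Most regions also held a peak in the Mettl3 knockout libraries of their own RNA type. The shares there were 73.8% and 70.0% of chromatin-only regions in caRNA and 72.8% and 74.1% of mRNA-only regions in mRNA. For shared regions they were 86.7% and 84.6% in caRNA and 88.0% and 88.7% in mRNA. The dependence of these peaks on METTL3 was not tested.

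**Figure D5:**
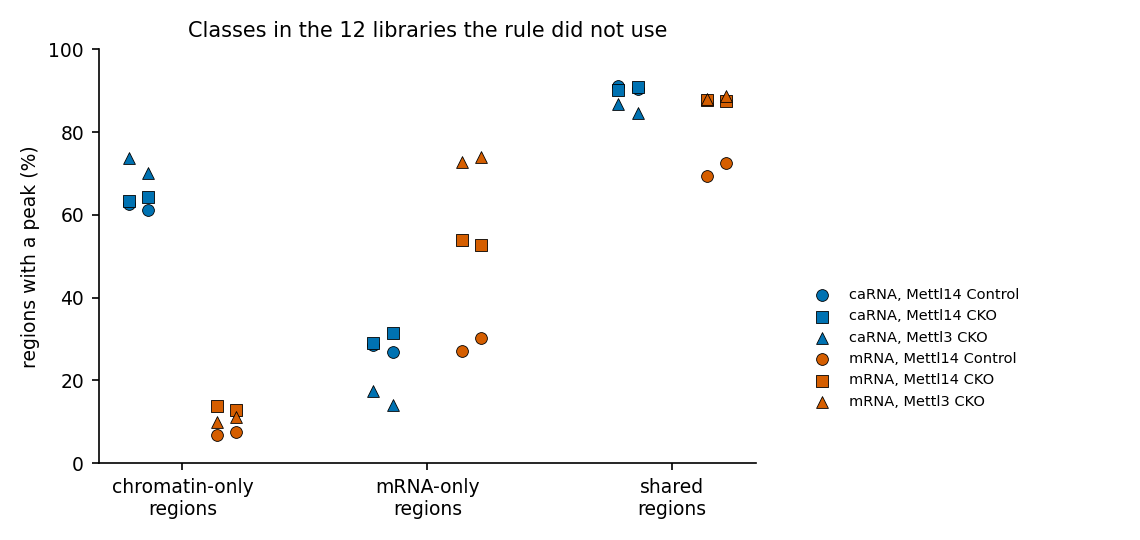
Share of regions (y axis, %) of each class (x axis) that held a peak in each of the 12 libraries not used to form the classes, with caRNA in blue, mRNA in orange and symbols for line and genotype. Chromatin-only regions lie at 61.1% or more in caRNA and at 13.8% or less in mRNA, while the mRNA-only regions of the Mettl14-line controls overlap between the fractions.

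The controls of the Mettl14 line, classified by the same rule, gave 22549 chromatin-only, 1480 mRNA-only and 11194 shared regions. Of the chromatin-only regions of the Mettl3-line controls 49.4% were chromatin-only there and 31.7% held no peak. Of the shared regions 64.2% were shared again. Of the mRNA-only regions 9.50% kept their class, 8.75% were chromatin-only and 53.3% held no peak. The positions were alike in that line, with 19.1%, 3.39% and 6.86% of chromatin-only, mRNA-only and shared sense summits in the first decile and 12.5%, 42.2% and 41.1% in the last. No test separates the lines in these shares.

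Chromatin-only regions outside genes were 1424 (9.85% of the class), against 304 mRNA-only (13.4%) and 653 shared regions (4.41%). Of the chromatin-only ones 37.0% lay within 10 kb downstream of a gene on its strand, compared with 24.3% of mRNA-only and 32.2% of shared ones. Antisense within 1 kb upstream of a start, as in the sequences of Rrn3, Derl3 and Hpdl, lay 3.37% of chromatin-only, 1.645% of mRNA-only and 2.60% of shared ones. The median width of the chromatin-only regions outside genes was 286 bp, against 197 bp for mRNA-only and 418 bp for shared regions outside genes.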

How the data were processed

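The data are 4 m6A immunoprecipitation libraries of Mettl3-line control cells, with 12 others of the series for tests. Per the submitters' processing notes, the tools were CASAVA, Trimmomatic 0.38, HISAT2 2.1.0 and SAMtools 1.9, with genome build mm10. Neither the peak caller nor the scaling to input is named there. The authors deposited a stranded peak list for each library, with replicates not pooled. The authors deposited each peak's fold enrichment, a ratio of precipitated over background signal, and its significance as −log10 p and −log10 q. The deposited summit offset gives the base of highest signal. Depth is unknown and intervals for counting error are not given.

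Spike-in peaks were set aside. Summits were placed in gene bodies of RefSeq GRCm38.p6 (49997 genes; strand known for 27025, among them 79.9% of protein-coding genes), and a gene's class and best fold used summits in that gene alone. A peak's strength for equal list lengths was its deposited significance. Only exact permutation tests over libraries were used, in Python 3.11.15 with numpy 2.4.6 and pandas 2.3.3, and the steps were tested on simulated data. Named genes were the 8 protein-coding and 5 noncoding genes of highest fold of each exclusive class, the 6 strongest shared genes, the 6 and 4 genes with most exclusive regions, the 4 widest regions, the 4 strongest regions outside genes, exclusive members of 21 gene lists, and Mettl3 and Mettl14; where many met the rule, a selection is printed. The members and lists were chosen with earlier results of these data known. Alternatives were list length, a −log10 q of at least 5, summits within 100 nt, overlap, strand, other controls and leaving out each library.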

Additional observations from a re-analysis of the deposited data

Results flagged for a closer look

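In the share of peaks of 1 kb or more, caRNA exceeded mRNA by 0.891 percentage points in the Mettl3-line controls, while in the Mettl3 knockouts the difference was -0.556. In the share of antisense summits, caRNA exceeded mRNA by 1.62 percentage points in the Mettl3-line controls, while in the Mettl14 knockouts the difference was -1.38. Both are listed because every library of one condition lay on the opposite side from those of the other. The difference between the conditions was not tested.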

How the results depend on the processing

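List length had the greatest effect. With lists reduced to the shortest, there were 5139 chromatin-only and 4700 mRNA-only regions, 922 and 1175 genes, and 0 chromatin-only Hox genes; the difference in median width turned to 110.5 bp, that in antisense share to -1.72 points, and that in lncRNA share was 0.163 points (adjusted exact permutation p = 0.0586). With the 10000 strongest peaks there were 2163 chromatin-only and 5333 shared regions, 735 chromatin-only and 3880 shared genes, 16 chromatin-only and 3 mRNA-only histone genes, and 0 chromatin-only and 5 mRNA-only Hox genes; width turned to 133.2 bp and the antisense share to -0.549 points. The differences in the first and the last decile kept their direction and passed under both. Merging by summits within 100 nt gave 3570 mRNA-only regions. Among genes of known strand 381 were mRNA-only with peaks of both strands and 363 with peaks on the gene's strand alone, where 0 Hox genes were chromatin-only. The Mettl14-line controls gave 22549 chromatin-only and 1480 mRNA-only regions and 345 mRNA-only genes.

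With a distance of 1000 bp in place of the deciles, chromatin-only minus shared was 8.71 points at the start and -8.62 at the end, and mRNA-only minus shared -2.07 and 3.34. With only the 8 control libraries no measure could pass, since the smallest possible exact permutation p is above 0.05. This setting therefore shows only the size of the differences. They were 4.14 points outside genes, 6.63 in the first decile and -13.1 in the last (adjusted exact permutation p = 0.0889 for each). The others were -4.75 bp in width, 2.42 points at 1 kb or more, 0.462 points in lncRNA genes and 5.91 kb in gene length. Replicates share only a number in the labels (correlations of same-numbered deviations -0.0136 to 0.0175); with the replicate number as a block, the difference at 1 kb or more was 1.26 points with an adjusted exact permutation p of 0.0714, and no other call changed.

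Leaving out each library in turn gave 15783 to 20718 chromatin-only, 2647 to 3395 mRNA-only and 15334 to 16645 shared regions, and 2365 to 2584, 625 to 701 and 7690 to 8095 genes. With a library less the rule is looser, so these counts all lie above those of the full set. The gene list counts without a library were made under the same looser rule. The presence differences ranged from 54.96 to 56.2 points for chromatin-only, -27.8 to -26.7 for mRNA-only and 6.16 to 7.23 for shared regions. Chromatin-only histone genes ranged from 38 to 41 and mRNA-only Hox genes from 9 to 10. A missing peak can mean less methylation, less RNA or less depth, which the peak lists cannot tell apart.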
